A study of Mus musculus with 12 samples.

Results

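The genes described here code for 9 nuclear-encoded regulators of mitochondrial biogenesis: Nrf1, Gabpa, Tfam, Tfb1m, Tfb2m, Polrmt, Esrra, Pprc1 and Ppargc1b. They were chosen by their symbols, which each matched 1 row of the count table, so that they are 9 of its 13780 genes. RNA was sequenced from mouse CD8+ T cells, isolated from the spleens of C57BL/6J mice aged 8 to 12 weeks by positive magnetic bead selection, in 12 libraries that form 3 groups of 4. Naïve cells were frozen directly after isolation. The media group spent 72 h in plain media with beads that carry antibodies to CD3 and CD28, plus recombinant human IL-2 at 10 U/ml. The lactate group was activated in the same way with 40 mM sodium lactate added. No group carried a genetic modification. The control for lactate was plain media rather than sodium chloride, so that lactate, sodium and osmolality cannot be told apart in this comparison.

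Most mitochondrial proteins are encoded in the nucleus, whereas the mitochondrial genome (mtDNA) encodes a small set of respiratory chain subunits with the ribosomal and transfer RNAs needed to translate them. NRF1 and GABPA, the DNA-binding subunit of the GABP (NRF2) complex, are transcription factors that bind promoters of nuclear genes for respiratory chain subunits and for the mtDNA transcription machinery. The nuclear receptor ERRα (Esrra) binds many of the same gene classes, and PRC (Pprc1) and PGC-1β (Ppargc1b) are coactivators of the PGC family that dock on these factors. Inside the organelle, TFAM packages mtDNA and bends its promoters, TFB2M melts the promoter together with the RNA polymerase POLRMT, and TFB1M dimethylates the small ribosomal RNA. Quiescent T cells have little mitochondrial mass, and activation through the T cell receptor is known to expand it.

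Counts per library ran from 14726904 to 21478137. CPM give a gene's share of the library's counts. They were scaled by the TMM method for single genes, but not for sums of markers or for Cd4 in this paragraph. In the naïve libraries, summed markers of B cells were at 465.8 to 1144 CPM, those of myeloid and dendritic cells at 502.3 to 1599 and those of red cells at 84.8 to 3411. The highest sums in any activated library were 16.2, 19.0 and 1.87 CPM. The 6 markers of CD8+ T cells summed to 1771 to 3876 CPM in naïve, 3016 to 3654 in media and 2324 to 2996 in lactate libraries. Against media, Cd3d, Cd3e and Cd3g were lower with lactate (log2 fold changes -0.74, -0.91 and -0.80) and Cd2 was higher (0.51). Cd8a and Cd8b1 did not pass the test. Cd4 was at 11.1 to 27.2 CPM in naïve and at most 0.951 CPM in activated libraries. Library numbers in the labels fall into a low series of 8 libraries and a high series of 4 (naïve replicate 4, media replicate 4 and lactate replicates 3 and 4), and donor tags repeat between the series. Read separately within each series, which gives the 5 activated donors that the record states, the tags pair 3 media with 3 lactate libraries, and all donor values below rest on this reading. Every difference from naïve cells below compares libraries that also differed in these markers, and their part in it was not tested. CPM are shares of a library, and in bulk samples fewer cells of a type and less RNA per cell cannot be told apart.

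Lactate against media separated the 9 genes into 3 that rose and 6 that did not pass the test. Pprc1, Polrmt and Esrra were 2.50-, 1.63- and 1.57-fold higher with lactate. The same 3 genes had fallen in media relative to naïve cells, by log2 fold changes of -1.01, -1.03 and -0.61. The sequences directly before the RefSeq start sites of these 3 genes (GRCm38.p6, 250 bases each, on the strand of the gene) are shown because these are the members that moved with lactate and because the other members include the factors whose motifs were searched. Capitals mark the letters GCGCATGC (NRF1) and CCGGAAG (the ETS core bound by GABPA), or their reverse complements. The stretches lie at chr10:79746582-79746831 on the minus strand for Polrmt, chr19:6921809-6922058 on the minus strand for Esrra, and chr19:46056289-46056538 on the plus strand for Pprc1. The RefSeq start of Pprc1 lies inside the span that GENCODE gives for the gene.
Polrmt: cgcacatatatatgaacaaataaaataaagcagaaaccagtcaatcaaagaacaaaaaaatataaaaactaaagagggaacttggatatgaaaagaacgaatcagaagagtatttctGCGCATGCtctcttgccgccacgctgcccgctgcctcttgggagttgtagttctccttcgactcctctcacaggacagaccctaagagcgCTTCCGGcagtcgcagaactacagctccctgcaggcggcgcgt
Esrra: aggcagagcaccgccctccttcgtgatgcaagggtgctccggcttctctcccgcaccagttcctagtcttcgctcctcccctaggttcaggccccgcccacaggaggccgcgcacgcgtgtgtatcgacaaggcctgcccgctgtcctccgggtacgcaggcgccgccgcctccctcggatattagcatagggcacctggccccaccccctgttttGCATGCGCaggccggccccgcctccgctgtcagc
Pprc1: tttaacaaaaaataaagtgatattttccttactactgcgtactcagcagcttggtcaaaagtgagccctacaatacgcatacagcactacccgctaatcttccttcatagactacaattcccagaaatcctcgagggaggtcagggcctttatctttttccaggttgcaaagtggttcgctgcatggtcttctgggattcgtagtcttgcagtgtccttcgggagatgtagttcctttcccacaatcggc

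The Polrmt promoter held the NRF1 letters at positions -133 to -126 and the ETS letters, as reverse complement, at -43 to -37 from the start. The Esrra promoter held the NRF1 letters as reverse complement at -34 to -27, and the Pprc1 window held none of the 4 motifs searched, which also included AAGGTCA (the core bound by ERRα) and CACGTG (an E-box). Both strands were read, from 250 bases before to 50 bases after each start. Among 32851 RefSeq promoters of this length, 2.71% held the NRF1 letters, 8.86% the ETS letters, 4.72% AAGGTCA and 7.15% CACGTG. Of the other members, Tfb2m held the NRF1 letters from 14 to 21 bases after its start, and Tfam (-47 to -41) and Gabpa (-93 to -87) held the ETS letters. Neither promoter listed for Nrf1, nor that of Tfb1m, held any of the 4, and no promoter of Ppargc1b was searched. These matches describe letters and do not show binding.

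Pprc1 codes for PRC, a serum-inducible coactivator of NRF1 and ERRα (GRCm38 19:46044886-46072915, plus strand, 16 exonic blocks, with 2.82% of exonic bases shared with Ldb1 on the opposite strand). It was at 101, 96.4, 114 and 109 CPM in the 4 naïve libraries, at 70.4, 36.4, 63.9 and 38.2 CPM in media and at 183, 116, 116 and 108 CPM with lactate. All media libraries lay below all naïve and all lactate libraries, the lactate libraries overlapped the naïve ones, and lactate replicate 1 stood far above the other lactate libraries. The log2 fold change of lactate against media was 1.32 (SE 0.23, 95% interval 0.83 to 1.82, adjusted p = 0.000786, edgeR quasi-likelihood test with Benjamini-Hochberg adjustment). By the exact permutation test of 4 against 4 libraries, two-sided, p was 0.0286, the smallest this design allows. Within the 3 donors with both libraries, Pprc1 was higher with lactate by 1.376, 0.86 and 1.498 on the log2 scale. Only 9.35% of all tested genes had a larger absolute change in this comparison.

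Polrmt, the RNA polymerase that transcribes mtDNA (10:79736123-79746581, minus strand, 15 exonic blocks, no exonic overlap with another gene), was at 49.1, 46.2, 52.0 and 69.2 CPM in naïve libraries, at 31.5, 23.7, 27.6 and 23.1 CPM in media and at 48.8, 42.7, 40.4 and 41.4 CPM with lactate. Media libraries again lay below all others, and naïve replicate 4, of the high series, was the highest of the 12. The log2 fold change was 0.71 for lactate against media (SE 0.14, edgeR adjusted p = 0.00217) and -1.03 for media against naïve (SE 0.14, edgeR adjusted p = 3.97e-05). In the 3 donor pairs the lactate library was higher by 0.63, 0.63 and 0.84 on the log2 scale. With lactate, Polrmt did not differ from naïve cells at the threshold used (log2 fold change -0.32, 95% interval -0.63 to -0.01, edgeR adjusted p = 0.0563).

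Esrra, which codes for the nuclear receptor ERRα (19:6910977-6921813, minus strand, 8 exonic blocks, 3.74% of exonic bases shared, with Trmt112 on the opposite strand and the microRNA gene Mir6990 on the same strand), was at 44.6, 39.5, 41.6 and 28.9 CPM in naïve libraries, at 28.3, 23.3, 26.6 and 23.0 CPM in media and at 41.1, 41.7, 40.5 and 35.3 CPM with lactate. The lowest lactate library was above the highest media library, and the lowest naïve library, replicate 4, was just above the highest media library. The log2 fold change was 0.65 for lactate against media (SE 0.13, edgeR adjusted p = 0.00254) and -0.61 for media against naïve (SE 0.13, edgeR adjusted p = 0.00139). Against naïve cells, the lactate group differed by 0.04 (95% interval -0.25 to 0.33, edgeR adjusted p = 0.816), and the sign of this value changed with the scaling of the libraries. The lactate library was higher than its media partner in each of the 3 donors, by 0.54, 0.65 and 0.62 on the log2 scale. Without media replicate 2 the call against media was just lost (0.61, edgeR adjusted p = 0.0104).

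Spread among the media libraries was shared by the 3 genes: replicates 1 and 3 were the higher pair and replicates 2 and 4 the lower pair for Pprc1, Polrmt and Esrra alike. A fit with the donor as a block and the naïve libraries as 1 level kept the call for Pprc1 (log2 fold change 1.25, edgeR adjusted p = 0.00232) and lost it for Polrmt (0.70, edgeR adjusted p = 0.0238) and Esrra (0.60, edgeR adjusted p = 0.0388). In that fit 992 genes were called in all, against 3451 without the block. When the 8 activated libraries were fitted alone with the donor as a block, the 3 genes passed, with edgeR adjusted p of 0.000553, 0.00124 and 0.00192, and 3654 genes were called. The fit of the activated libraries alone was chosen after seeing the data. With the donor as a block, both fits compare lactate with media only within the 3 donors that gave both libraries.

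Of all tested genes, 13.9% were called higher and 11.1% lower in lactate against media, beside 3 and 0 of the 9 members by the edgeR test. DESeq2 also called 3 members higher and 0 lower, with 4551 of the 13767 tested genes called in either direction. At an unadjusted p under 0.05 in edgeR there were 4 members, each higher with lactate. The largest p of these 4, that of Nrf1, ranked 6234 among the 13767 tested genes, so that at least as many genes were under 0.05. Non-overlapping groups were seen for 4 of the 9 members, each with the lactate libraries above, beside 23.2% of all tested genes that lay above and 21.5% that lay below. The fourth was Tfam. With 9 genes, these shares describe the members only. The median log2 fold change of the 9 was 0.22, and that of all tested genes was -0.002.

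**Figure D1:**
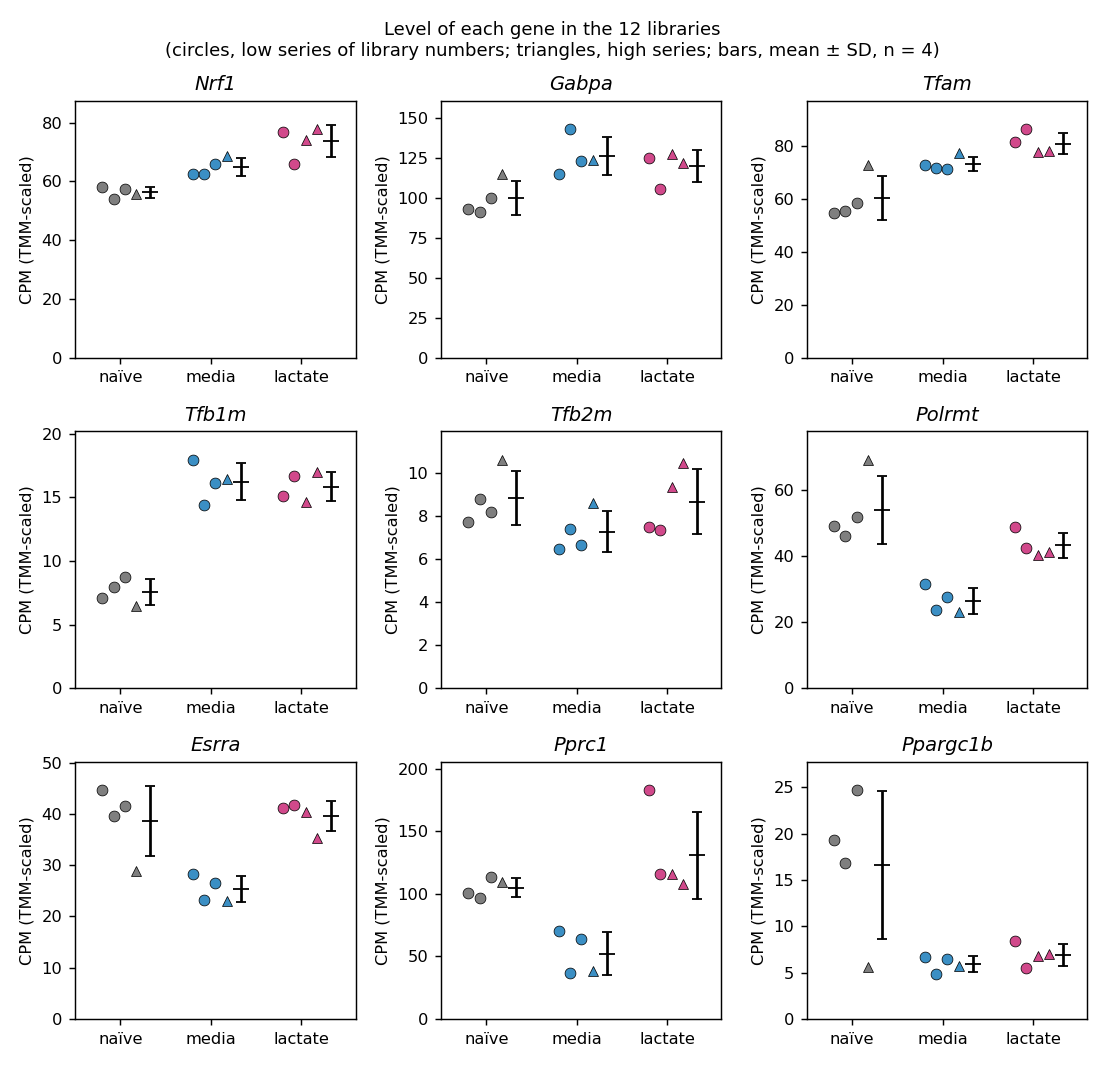
CPM of each of the 9 genes (vertical axis, from 0, scaled by TMM) in the naïve, media and lactate libraries, with circles for the low and triangles for the high series of library numbers, and the mean ± SD of 4 libraries as bars. For Pprc1, Polrmt and Esrra the 4 media points sit below all naïve and all lactate points, and for Ppargc1b the naïve triangle, at 5.66 CPM, sits among the activated libraries.

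Among the factors that act on nuclear promoters, Nrf1 and Gabpa moved little. Nrf1 (6:30047988-30153458, plus strand, 17 exonic blocks, no exonic overlap) was at 58.1, 53.9, 57.5 and 55.8 CPM in naïve libraries, at 62.5, 62.4, 65.9 and 68.7 CPM in media and at 76.9, 65.9, 74.1 and 77.7 CPM with lactate. All activated libraries lay above all naïve libraries, and lactate replicate 2 was within the range of media. Lactate against naïve passed the test at a log2 fold change of 0.39 (SE 0.08, edgeR adjusted p = 0.000665), whereas media against naïve (0.20, edgeR adjusted p = 0.0360) and lactate against media (0.18, 95% interval 0.01 to 0.36, edgeR adjusted p = 0.0817) did not. The lactate against naïve call was lost without naïve replicate 2 (0.28, edgeR adjusted p = 0.0150) or lactate replicate 4 (0.30, edgeR adjusted p = 0.0109), and in the low series alone (0.28, edgeR adjusted p = 0.0305).

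Gabpa (16:84834925-84863779, plus strand, 13 exonic blocks, with 6.98% of exonic bases shared with Atp5j on the opposite strand) was at 92.7, 91.3, 99.9 and 115 CPM in naïve libraries, at 115, 143, 123 and 124 CPM in media and at 125, 105, 127 and 122 CPM with lactate. The lowest media library, at 115.1 CPM, was only just above the highest naïve library, at 114.8 CPM. Media against naïve gave a log2 fold change of 0.34 (SE 0.10) with an edgeR adjusted p of 0.0104, just outside the threshold of 0.01. Without naïve replicate 4, media replicate 1 or lactate replicate 2 it passed, at 0.00196, 0.00983 and 0.00802. Lactate against media gave -0.07 (95% interval -0.30 to 0.15, edgeR adjusted p = 0.601).

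Ppargc1b, which codes for the coactivator PGC-1β (18:61298136-61400431, minus strand, 14 exonic blocks, no exonic overlap), was the member that fell the most on activation and the one with the largest spread in naïve cells. It was at 19.3, 16.8, 24.7 and 5.66 CPM in naïve libraries, at 6.66, 4.80, 6.52 and 5.77 CPM in media and at 8.46, 5.50, 6.79 and 6.99 CPM with lactate. Naïve replicates 1 to 3 were far above every activated library, and naïve replicate 4 was within the media range. Media against naïve gave a log2 fold change of -1.48 (SE 0.34, edgeR adjusted p = 0.00191), and lactate against naïve gave -1.26 (SE 0.34, edgeR adjusted p = 0.00469). Within the low series the media group differed from naïve by -1.74 on the log2 scale, while in the high series, with 1 library on each side, the difference was 0.03. Without naïve replicate 4 the model gave -1.78 (edgeR adjusted p = 4.25e-06), and with limma voom media against naïve was not called (adjusted p = 0.0135). Lactate against naïve was not called without naïve replicate 1 or 3 or lactate replicate 2 or 3, with edgeR adjusted p of 0.0123, 0.0118, 0.0167 and 0.0102. It was also lost with limma voom (adjusted p = 0.0260), with the 2 groups fitted alone (edgeR adjusted p = 0.0126) and with a term for the library series (edgeR adjusted p = 0.0150). The exact permutation p was 0.114. Red cell markers in the 4 naïve libraries summed to 936.8, 3411, 377.2 and 84.8 CPM in order of replicate, with the lowest sum in replicate 4 and the highest in replicate 2. B cell markers in the same order summed to 803.3, 1144, 465.8 and 909.2 CPM and myeloid markers to 1599, 1250, 563.8 and 502.3 CPM. Replicate 4 had the lowest Ppargc1b and the lowest red cell and myeloid sums. Among replicates 1 to 3, Ppargc1b was highest in replicate 3, where each of the 3 sums was lowest. The part of other cells in the fall was not tested. Lactate against media gave 0.22 (95% interval -0.52 to 0.96, edgeR adjusted p = 0.644), on counts of 88 to 165 per library.

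Of the genes that act on mtDNA and its products, Tfb1m rose in media against naïve cells. It was the 1 member called higher there at an adjusted p of 0.01, beside 28.5% of all tested genes. At 0.05 there were 4, with Nrf1, Gabpa and Tfam, and 9387 of the 13767 tested genes were called in either direction. Tfb1m (17:3519256-3557781, minus strand, 9 exonic blocks, 3.93% of exonic bases shared with Tiam2 on the opposite strand) was at 7.10, 7.99, 8.73 and 6.44 CPM in naïve libraries, at 17.9, 14.4, 16.1 and 16.4 CPM in media and at 15.1, 16.7, 14.6 and 17.0 CPM with lactate. Every activated library was above every naïve library, and the media and lactate ranges coincided. The increase was 2.14-fold in media (log2 fold change 1.10, SE 0.13, edgeR adjusted p = 1.26e-05) and 2.09-fold with lactate (1.07, SE 0.13, edgeR adjusted p = 1.25e-05). Lactate against media gave -0.03 (95% interval -0.32 to 0.25, edgeR adjusted p = 0.874).

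Tfb2m, its paralog and the promoter-melting factor (1:179528055-179546267, minus strand, 11 exonic blocks, no exonic overlap), passed the test in none of the 3 comparisons. It was at 7.72, 8.77, 8.19 and 10.6 CPM in naïve libraries, at 6.47, 7.37, 6.63 and 8.59 CPM in media and at 7.48, 7.34, 9.34 and 10.5 CPM with lactate. Within each group the libraries of the high series were the highest. The gene had 119 to 217 counts per library, and the 95% interval of lactate against media ran from -0.12 to 0.63 on the log2 scale.

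Tfam, which codes for the factor that packages mtDNA (10:71225464-71238280, minus strand, 9 exonic blocks, no exonic overlap), was at 54.7, 55.4, 58.6 and 72.6 CPM in naïve libraries, at 72.6, 71.7, 71.2 and 77.2 CPM in media and at 81.3, 86.2, 77.8 and 78.0 CPM with lactate. Naïve replicate 4 reached the level of media, and the lactate libraries lay just above the media libraries. Lactate against naïve gave a log2 fold change of 0.42 (SE 0.10, edgeR adjusted p = 0.00159), which did not pass without naïve replicate 2 or 3 or lactate replicate 3 or 4 (edgeR adjusted p = 0.0285, 0.0217, 0.0101 and 0.0104), with the 2 groups fitted alone (0.0146) or with the size factors of DESeq2 (0.01003). Media against naïve gave 0.28 (edgeR adjusted p = 0.0218) and, without naïve replicate 4, 0.37 (edgeR adjusted p = 0.000458). Lactate against media gave 0.14 (95% interval -0.07 to 0.35, edgeR adjusted p = 0.262). In TPM, which divide counts by gene length and scale each library to a fixed sum, Tfam was at 56.4 to 58.1 in media and at 53.1 to 62.8 with lactate, so that its groups overlapped on that scale. On the same scale Pprc1, Polrmt and Esrra remained without overlap.

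In media against naïve cells, 1 of the 9 genes was called higher and 4 lower, beside 28.5% and 29.0% of all tested genes. In lactate against naïve cells, 3 were called higher (Nrf1, Tfam and Tfb1m) and 1 lower (Ppargc1b), beside 33.0% and 32.0% of all tested genes. Without naïve replicate 2 or 3 or lactate replicate 3 or 4 the calls against naïve numbered 2. Both comparisons use the same naïve libraries. Pprc1, with a difference of 0.31 between lactate and naïve (95% interval -0.17 to 0.80, edgeR adjusted p = 0.216), Polrmt and Esrra were thus called between media and naïve and not between lactate and naïve.

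**Figure D2:**
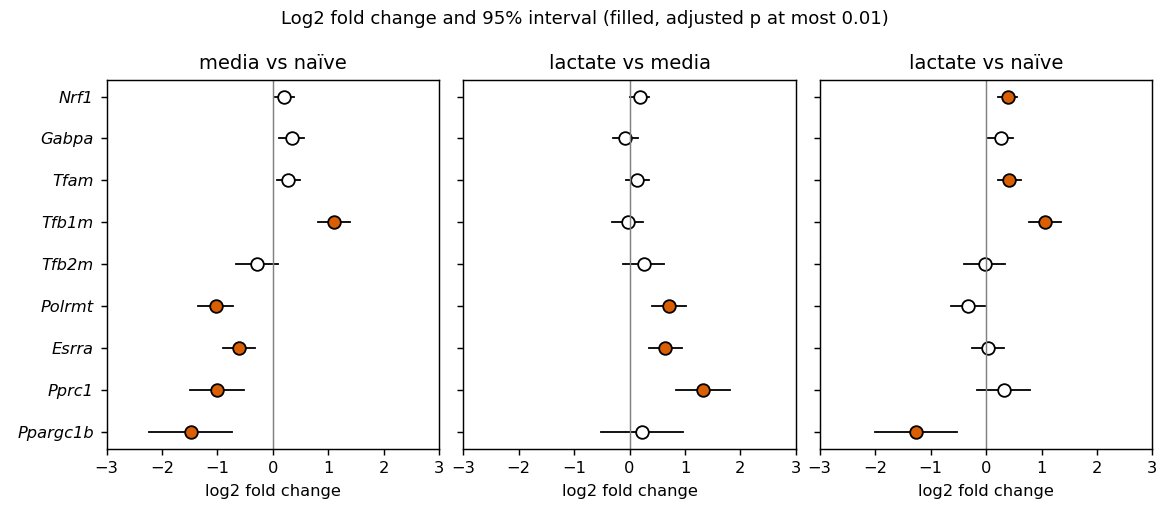
Log2 fold change of each of the 9 genes with its 95% interval (horizontal axis) for media against naïve, lactate against media and lactate against naïve, filled where the edgeR adjusted p was at most 0.01. Polrmt, Esrra and Pprc1 lie left of 0 in the first panel and right of 0 in the second, whereas Tfb1m lies at 1.10 for media and 1.07 for lactate against naïve and at -0.03 for lactate against media.

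Levels of different genes were compared in TPM, which correct for length. In naïve cells Gabpa (60.0 ± 8.56 TPM, SD, n = 4) and Pprc1 (57.2 ± 5.71 TPM) led, followed by Tfam (46.5 ± 8.07), Polrmt (39.6 ± 9.04), Esrra (29.8 ± 4.82), Nrf1 (18.7 ± 1.08), Ppargc1b (14.1 ± 6.73), Tfb2m (10.8 ± 1.84) and Tfb1m (7.14 ± 0.80). Of neighbors in this order, the ranges of Esrra and Nrf1 and those of Tfb2m and Tfb1m did not overlap, and all other neighbors overlapped. In media the order was Gabpa (76.9 ± 7.65 TPM), Tfam (57.1 ± 0.76), Pprc1 (29.0 ± 10.3), Nrf1 (21.9 ± 0.56), Esrra (19.9 ± 2.53), Polrmt (19.6 ± 3.36), Tfb1m (15.6 ± 1.54), Tfb2m (8.96 ± 0.89) and Ppargc1b (5.16 ± 0.81).

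Pprc1, Nrf1, Esrra and Polrmt each overlapped the next gene in the media order, and the other steps were without overlap. With lactate, Gabpa (66.4 ± 5.39 TPM), Pprc1 (66.1 ± 20.4) and Tfam (57.5 ± 4.98) overlapped at the top, and Polrmt (29.3 ± 3.79), Esrra (28.4 ± 3.01) and Nrf1 (22.6 ± 1.74) overlapped below them. Tfb1m (13.9 ± 1.14 TPM), Tfb2m (9.69 ± 1.32) and Ppargc1b (5.49 ± 1.09) followed, each apart from the next. Tfb1m thus stood last in naïve cells and seventh in both activated groups.

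**Figure D3:**
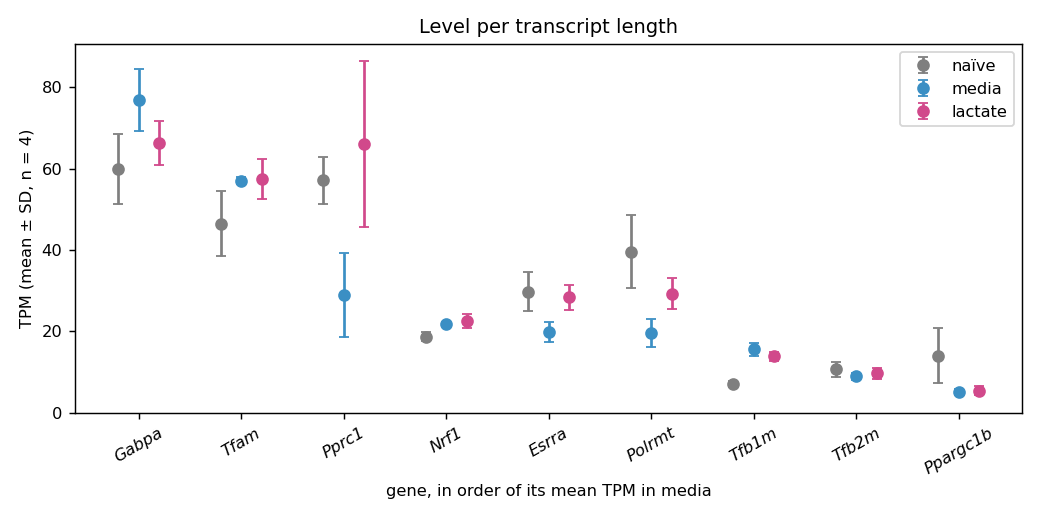
Mean level of each of the 9 genes in TPM (vertical axis, from 0) with the SD of 4 libraries, in naïve, media and lactate, ordered by the level in media. Gabpa has the highest mean in each group, while Pprc1 is at 29.0 TPM in media and 66.1 TPM with lactate.

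The members differed in how even they were within groups. The coefficient of variation of CPM was lowest for Nrf1 in naïve cells (3.33%) and for Tfam in media (3.76%), and highest for Ppargc1b in naïve cells (48.2%). Pprc1 varied by 33.4% in media and 26.7% with lactate, against 7.50% in naïve cells. In media the higher pair of libraries had 70.4 and 63.9 CPM of Pprc1 and the lower pair 36.4 and 38.2 CPM.

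Partners and upstream regulators of these factors numbered 19, of which 13 were in the table and tested. Ppargc1a, Esrrb, Esrrg, Ppara, Ppard and Prkaa2 have no values here. Lactate against media called 1 higher and 2 lower of the 13 (median log2 fold change -0.05), beside 13.9% and 11.1% of all tested genes. Pparg, a nuclear receptor of lipid metabolism, rose from 0.588 ± 0.306 to 2.51 ± 0.775 CPM (log2 fold change 2.08, SE 0.51, edgeR adjusted p = 0.00647), on 3 to 17 counts in media and 26 to 69 with lactate. Nrip1, a corepressor of nuclear receptors that include ERRα, fell from 103 ± 21.0 to 63.2 ± 7.45 CPM (-0.70, SE 0.17, edgeR adjusted p = 0.00516), and Creb1, which codes for a cAMP-responsive transcription factor, fell from 155 ± 28.9 to 103 ± 14.8 CPM (-0.60, SE 0.13, edgeR adjusted p = 0.00411).

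Media against naïve called 1 higher and 5 lower of these 13 partners, beside 28.5% and 29.0% of all tested genes. Perm1, a coregulator known from striated muscle, had 13 to 43 counts in naïve libraries, at most 1 in media and 0 in every lactate library, and its fitted fold change is therefore not given. Pparg was at 12.5 ± 7.41 CPM in naïve cells and fell by 4.39 on the log2 scale (SE 0.52, edgeR adjusted p = 9.69e-06). Nfe2l2, which codes for an oxidative stress factor that is unrelated to the NRF2 complex of GABPA, fell from 88.9 ± 3.07 to 38.2 ± 4.79 CPM (-1.22, SE 0.13, edgeR adjusted p = 3.08e-06). The myeloid markers given above for the naïve libraries stand beside the values of Pparg, and their part was not tested.

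Genes of mtDNA replication and transcription other than the 9 numbered 17, all tested. With lactate, 6 were higher and 2 lower than in media (median log2 fold change 0.18), beside 13.9% and 11.1% of all tested genes. The share that was lower was near the background. Atad3a, which codes for an inner membrane ATPase that contacts nucleoids, rose from 43.0 ± 10.5 to 114 ± 16.4 CPM (log2 fold change 1.40, SE 0.18, edgeR adjusted p = 0.000152). Tefm, the elongation factor of POLRMT, rose from 5.70 ± 0.80 to 11.0 ± 1.05 CPM (0.95, SE 0.16, edgeR adjusted p = 0.000712). Primpol, a primase-polymerase of both nucleus and mitochondria, fell from 152 ± 24.2 to 58.0 ± 15.9 CPM (-1.39, SE 0.18, edgeR adjusted p = 0.000178). The other 4 that rose were Twnk (the mtDNA helicase), Ssbp1, Top1mt and Rnaseh1, with log2 fold changes of 0.51 to 0.86, and Polg2 fell by 0.63 (SE 0.16, edgeR adjusted p = 0.00822).

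In media against naïve cells the same list gave 4 higher and 5 lower genes, beside 28.5% and 29.0% of all tested genes. Both shares were near the background. Lonp1, the matrix protease that degrades TFAM, was the largest increase, from 92.4 ± 19.2 to 457 ± 61.9 CPM (log2 fold change 2.31, SE 0.15, edgeR adjusted p = 6.42e-08). Primpol increased from 33.6 ± 5.19 to 152 ± 24.2 CPM (2.17, SE 0.19, edgeR adjusted p = 7.22e-07). Polg2, the accessory subunit of the mtDNA polymerase, fell from 41.0 ± 0.96 to 17.3 ± 3.64 CPM (-1.25, SE 0.16, edgeR adjusted p = 1.85e-05).

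Of 14 genes of mitochondrial RNA processing, 8 were higher with lactate than in media, beside 13.9% of all tested genes. The other 6 did not pass (median log2 fold change of the 14, 0.49). Elac2, which trims the ends of mitochondrial transfer RNAs, rose from 35.8 ± 6.78 to 83.2 ± 10.6 CPM (log2 fold change 1.22, SE 0.14, edgeR adjusted p = 0.000104). Fastkd2 and Fastkd5, RNA-binding proteins of mitochondrial RNA granules, rose by 1.17 (SE 0.15, edgeR adjusted p = 0.000128) and 1.01 (SE 0.21, edgeR adjusted p = 0.00255). In media against naïve cells 4 of the 14 were higher and 2 lower, beside 28.5% and 29.0% of all tested genes, so that the share that was higher was near the background. Slirp and Mtpap, which act on the stability and the poly(A) tails of mitochondrial mRNAs, rose by 1.12 and 0.53 on the log2 scale, and Fastkd2 fell by 0.70 (SE 0.15, edgeR adjusted p = 0.000936).

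Cytochrome c and the nuclear subunits of cytochrome c oxidase (COX) are classical targets of NRF1 and GABPA. With lactate, 7 of these 11 genes were higher than in media, beside 13.9% of all tested genes. The other 4 did not pass (median log2 fold change of the 11, 0.36). Cycs, the somatic cytochrome c, rose from 18.3 ± 3.35 to 38.2 ± 4.47 CPM (log2 fold change 1.06, SE 0.15, edgeR adjusted p = 0.000211). Cox6a1 and Cox5a rose by 0.93 (SE 0.12, edgeR adjusted p = 0.000182) and 0.63 (SE 0.11, edgeR adjusted p = 0.00110). In media against naïve cells 10 of the 11 were higher, beside 28.5% of all tested genes. Among the 10 were Cox7a2 (1.21), Cox5a (0.98) and Cox8a (0.94), and Cycs did not pass (0.27, edgeR adjusted p = 0.119). Nrf1 and Gabpa, in the same comparison, differed by 0.20 and 0.34 on the log2 scale.

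Products of mtDNA were represented by 7 of its 13 mRNAs in the table. Together they took 2.11, 1.97, 2.02 and 2.05% of counts in naïve libraries, 1.11, 1.15, 1.12 and 1.15% in media and 1.43, 1.19, 1.12 and 1.32% with lactate. Every naïve library was above every activated library, and the media and lactate ranges overlapped. The share was lower in media than in naïve cells by 0.90 percentage points (exact permutation test, two-sided, p = 0.0286), and it differed by 0.13 points between lactate and media (exact permutation test, two-sided, p = 0.114), a test that takes no account of donors. In the 3 donor pairs the share was higher with lactate, at 1.43 against 1.11, 1.19 against 1.12 and 1.32 against 1.15%, and the lactate library with no media partner was at 1.12%. Polyadenylated RNA was selected for these libraries, so that the shares also depend on the tails of these mRNAs.

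Single mtDNA mRNAs did not move together. In media against naïve cells 5 of the 7 were lower and 1 higher, beside 29.0% and 28.5% of all tested genes. mt-Cytb fell from 3624 ± 176 to 784 ± 81.7 CPM (log2 fold change -2.21, SE 0.13, edgeR adjusted p = 2.47e-08) and mt-Nd4 from 1654 ± 81.5 to 488 ± 44.8 CPM (-1.76, SE 0.12, edgeR adjusted p = 7.66e-08). mt-Nd6, the mRNA read from the other strand of mtDNA, rose from 12.5 ± 1.82 to 109 ± 39.6 CPM (3.13, SE 0.46, edgeR adjusted p = 5.94e-05). Since the sources used here do not give how strand was counted, reads from the opposite strand cannot be told apart from those of mt-Nd6. Between lactate and media 1 of the 7 passed the test, as higher, beside 13.9% of all tested genes called higher and 11.1% lower. This was mt-Nd1, which rose from 1266 ± 361 to 2800 ± 369 CPM (1.15, SE 0.17, edgeR adjusted p = 0.000284), by 1.25 within the low and 0.73 within the high series. Polrmt, the polymerase that makes all of them, had log2 fold changes of -1.03 and 0.71 in these comparisons.

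**Figure D4:**
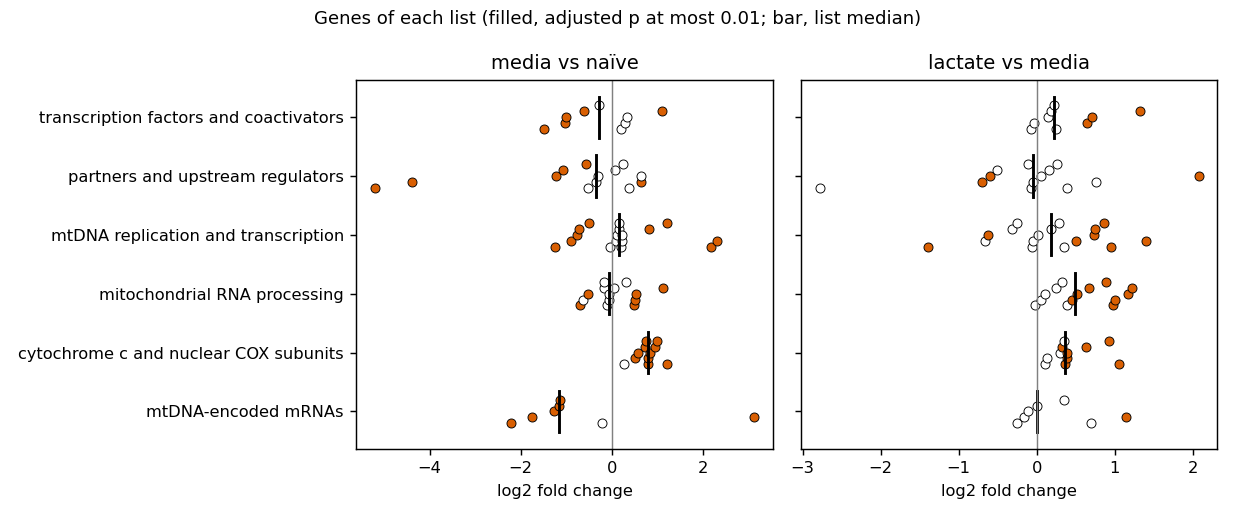
Log2 fold change (horizontal axis) of every tested gene of the 9 transcription factors and coactivators and of 5 related gene lists (vertical axis), for media against naïve and lactate against media, filled where the edgeR adjusted p was at most 0.01, with the list median as a bar. The 11 cytochrome c and COX genes lie right of 0 in both panels, whereas the 9 regulators have medians of -0.28 and 0.22.

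Genes whose levels followed 3 of the members most closely across the 12 libraries were found by Pearson's r of log2 CPM, as a description of libraries that fall into 3 groups. For Pprc1 these were Pdcd11 (r = 0.978, with 99.7, 62.6 and 129 CPM in naïve, media and lactate), Rrp12 (0.972, with 49.1, 24.7 and 73.2 CPM) and Aatf (0.970, with 34.2, 25.7 and 39.4 CPM). For Tfam they were Pars2 (0.979), Lsm8 (0.973) and Ikzf4 (0.969), each lowest in naïve and highest in lactate. For Ppargc1b they were Hspa14 (0.976), Hspa1l (0.974) and Svil (0.968), each highest in naïve cells. Hspa1l was at 1.71, 0.0116 and 0.0561 CPM in naïve, media and lactate, so that it had almost no counts in the activated groups. These values are over n = 12 libraries that share group, donor and library series.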

How the data were processed

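RNA-seq of 12 libraries (TruSeq Stranded mRNA, single-end reads) was processed by the authors with bcl2fastq 2.20.0.422, STAR 2.7.5b and featureCounts on mm10/GRCm38 with Ensembl release 99 exons. The deposited values are raw counts of uniquely mapped reads per gene, with gene lengths. PCR duplicates were removed per the methods, but mt-Co1 had up to 147472 counts against 3090 start positions over both strands, so its counts were not limited to 1 read per position. The strand setting is not given in the sources used here.

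The 13767 of 13780 genes that reached 1 CPM in 3 libraries were fitted in edgeR 4.0.16 (R 4.3.3) with TMM scaling, 3 groups and 12 libraries, using the quasi-likelihood test, Benjamini-Hochberg adjustment over all genes with 0.01 as the threshold. Dividing the log2 fold change by the square root of F gave its standard error. Exact permutation tests used 70 arrangements of 4 against 4. The test was checked on simulated data. Coordinates are from GENCODE M21 and promoters from RefSeq (GRCm38.p6), which were searched for 8 of the 9 genes, without Ppargc1b. Replicates are separate donors within a group. With donor tags read within each library series, 3 of 5 activated donors gave both libraries. Deviations from group means of these pairs correlated at 0.374, 0.211 and 0.553, so the donor was tried as a block.

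The members, gene lists and tests were chosen with earlier results of these data known. The text names all 9 members, up to 3 called genes with the largest change per list and comparison, and the 3 genes most like Pprc1, Tfam and Ppargc1b (log2 CPM, prior count 2). Where a list has more genes that passed, Twnk, Ssbp1, Top1mt, Rnaseh1 and Polg2 were named after their values were seen. Alternatives used DESeq2 1.42.0, limma 3.58.1 (voom), other scalings, filters, thresholds and samples.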

Additional observations from a re-analysis of the deposited data

Results flagged for a closer look

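Pprc1 in lactate replicate 1, at 183 CPM, lay far from the other 3 lactate libraries, at 108 to 116 CPM. Its gap to the nearest of them was 0.893 of the range of the group, above Dixon's 95% critical value for 4 samples. It was the 1 such sample among 27 groups (9 genes in 3 groups). Chance gives such a sample in about 1 of 20 groups, so that 1 among 27 is near what chance gives.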

How the results depend on the processing

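Each comparison was repeated under 25 alternatives, and lactate against media under 27. Of the 9 genes, 5 were called in media against naïve, and 8 at an adjusted p of 0.05. Of the 13767 tested genes, 7915 and 9387 were called at these 2 thresholds. Without 1 library each, 5 to 7 of the 9 genes were called. In lactate against media 3 were called, 1 with the replicate block by donor and naïve libraries as 1 level, and 2 to 3 without 1 library each: without media replicate 2, Esrra had an edgeR adjusted p of 0.0104. A fit of the 8 activated libraries alone with the donor as a block, chosen after seeing the data, called 3. In lactate against naïve 4 were called, 2 with the 2 compared groups alone, and 2 to 5 without 1 library each (2 without naïve replicate 2 or 3 or lactate replicate 3 or 4). The replicate block by title number gave 5, 3 and 4 calls and so changed no count. In that pairing, media and lactate libraries with title numbers 2 and 3 come from different donors, with correlations of 0.297 and 0.0038.

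Over single genes, direction and call stayed in 212 of 225 values for media against naïve, 239 of 243 for lactate against media and 193 of 225 for lactate against naïve. The signs that changed belonged to genes that did not pass. Esrra in lactate against naïve was -0.0576 with DESeq2, -0.0573 with its size factors in edgeR, -0.0195 under upper quartile scaling, -0.0155 with the 2 groups alone, -0.0123 with at least 10 counts in every library, -0.0724 in the low library series alone (chosen after seeing the data), and -0.0874 to 0.0931 without 1 library each. Tfb2m in lactate against naïve ran from -0.198 to 0.0652 without 1 library each, above 0 without naïve replicate 4, lactate replicate 1 or lactate replicate 2, and Tfb1m in lactate against media from -0.0877 to 0.0179, above 0 without media replicate 1. The low series alone took Pprc1 in media against naïve to an edgeR adjusted p of 0.0102, and limma voom took Ppargc1b there to 0.0135. The causes were not tested. Counts of 88 to 458 per library limit Ppargc1b, Tfb1m and Tfb2m.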

Other observations

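The 2 ribosomal RNAs of mtDNA, which are made from the promoter where TFAM, TFB2M and POLRMT act and of which the smaller is the substrate of TFB1M, were listed in the table although polyadenylated RNA had been selected. The small ribosomal RNA mt-Rnr1 took 0.0218 to 0.0281% of counts in naïve libraries. In media it took 0.116, 0.123 and 0.124% in the low series of library numbers and 0.983% in the high-series library, and with lactate 0.287 and 0.401% in the low and 1.05 and 1.29% in the high series. The large ribosomal RNA mt-Rnr2 took 0.0820 to 0.0957% in naïve libraries, 0.181, 0.184, 0.167 and 0.523% in media and 0.366, 0.429, 0.568 and 0.605% with lactate. Lactate against media differed by 0.42 percentage points for mt-Rnr1 (exact permutation test, two-sided, p = 0.171) and by 0.23 points for mt-Rnr2 (p = 0.0857 by the same exact test), which takes no account of donors or series. In each of the 3 donor pairs the lactate library had the higher share of both, for mt-Rnr1 at 0.287 against 0.116, 0.401 against 0.124 and 1.29 against 0.983%, and for mt-Rnr2 at 0.366 against 0.181, 0.429 against 0.167 and 0.605 against 0.523%. Within the low series the lactate libraries were higher by 0.223 and 0.220 points, and within the high series by 0.182 and 0.0642 points. The part of the library series in these shares was not tested beyond these values.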
